A study of Mus musculus with 3 samples.

Results

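PHF10 sites at single-gene promoters were defined as merged ChIP-seq peaks of PHF10 that lay within 200 bp of an annotated transcription start site (TSS) of exactly 1 gene. The peaks of both PHF10 replicates were pooled, and peaks sharing at least 1 bp were merged. Of the 301 nuclear sites obtained in this way, 209 met the rule and are called members here, each at a different gene. The other nuclear sites lay at promoters of several genes (60 sites) or at no promoter (32 sites), and 2 sites on the mitochondrial genome were dropped. The proximity of members to a TSS was therefore fixed by the rule and is not a result.

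Chromatin was prepared from the brains of C57BL/6 mice (male C57BL/6J in the study's methods), aged 120 days after birth according to the sample labels, and 2 PHF10 immunoprecipitations and 1 control were sequenced. The control is called rabbit IgG in its title and protocol and pre-immune in its description, and it is called IgG below. A non-commercial rabbit antibody against PHF10 was used, which recognises all isoforms of the protein. The protocol describes a whole brain, whereas the description deposited with the series names the cerebellum and gives a younger age, and the names of the peaks also point to cerebellum, so that the part of the brain and the age are not certain. The replicates share their IgG control and no second condition was compared, so the values below describe a single state of the chromatin. Chromatin of the tissue pools its cell types, and a signal in fewer cells cannot be told apart from a weaker signal in every cell.

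PHF10 is a subunit of PBAF, a form of the SWI/SNF complexes that use ATP to move or remove nucleosomes. PBAF is targeted to chromatin by domains that read histone modifications, and PHF10 can carry plant homeodomain fingers of this kind, depending on the isoform. RNA polymerase II starts transcription at the TSS, from a core promoter that may contain a TATA box, and most mammalian promoters of widely expressed genes lie in stretches rich in the CpG dinucleotide. GC boxes (GGGCGG, bound by Sp1-like proteins), CCAAT boxes (bound by NF-Y) and the cAMP response element (TGACGTCA, bound by CREB-like proteins) are common elements just upstream of the TSS.

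The promoters of 5 members are printed below because they had some of the highest mean folds among the protein-coding, CpG-rich members with a peak in both replicates whose printed window holds at most 30 bases of untranslated region. Each runs from 100 bases upstream to 30 bases downstream of the TSS nearest to the summit, on the strand of the gene, from mm10 (GRCm38). The windows are placed by the TSS and need not hold the summit. It lay outside them at Polr2a (61 bp from the TSS), Tob1 (81 bp) and H2-DMa (-244 bp). Capitals mark, on either strand, the letters of the GC box, the CCAAT box and the cAMP response element given above, and the TATA box as TATAAA. The positions are Polr2a chr11:69758608-69758737, Tob1 chr11:94211354-94211483, H2-DMa chr17:34119441-34119570, Ulk2 chr11:61855044-61855173 and Cdk10 chr8:123224742-123224871.
Polr2a: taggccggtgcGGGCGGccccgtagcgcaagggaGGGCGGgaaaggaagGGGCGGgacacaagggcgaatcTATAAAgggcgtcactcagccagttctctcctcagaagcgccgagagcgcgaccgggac
Tob1: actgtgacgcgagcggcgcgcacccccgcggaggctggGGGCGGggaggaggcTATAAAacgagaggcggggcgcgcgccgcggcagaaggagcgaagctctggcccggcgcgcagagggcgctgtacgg
H2-DMa: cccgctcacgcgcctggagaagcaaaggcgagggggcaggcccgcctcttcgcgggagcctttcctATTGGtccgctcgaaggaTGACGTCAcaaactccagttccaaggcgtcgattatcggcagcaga
Ulk2: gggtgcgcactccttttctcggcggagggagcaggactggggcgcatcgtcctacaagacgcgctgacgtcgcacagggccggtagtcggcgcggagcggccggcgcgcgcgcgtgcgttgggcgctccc
Cdk10: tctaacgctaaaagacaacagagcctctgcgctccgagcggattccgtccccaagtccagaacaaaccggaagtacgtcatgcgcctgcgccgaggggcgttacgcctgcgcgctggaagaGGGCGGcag

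The promoter of Polr2a, the gene of the largest subunit of RNA polymerase II, holds 3 GC boxes and 1 TATAAA, and that of Tob1, an antiproliferative regulator of mRNA decay, holds 1 of each. The promoter of H2-DMa, a chaperone of peptide loading on MHC class II, holds 1 CCAAT box and 1 TGACGTCA. In Ulk2, which encodes a kinase that starts autophagy, none of these letters was found in the printed window. The window of Cdk10, a cyclin-dependent kinase, holds 1 GC box, downstream of the TSS. All 5 are dense in CpG, with 13 to 22 CpG dinucleotides in 130 bases.

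A different class of sequence stood at other members. It was sought around the summit and not around the TSS, so it is not a like comparison with the promoters above. At 20 of the 209 members (9.57%, 95% Wilson interval 6.28% to 14.3%) the stretch within 100 bp of the summit contained an uninterrupted GA/CT dinucleotide repeat of at least 12 bp, called a GA run below. This class was chosen after the sequences at the summits had been seen, so it is described without a test. The runs are shown for 7 of the 13 such members with a peak in both replicates, each with at most 30 bases of untranslated region. Capitals mark the run, flanked by 10 bases on each side, on the strand of the gene. The positions in mm10 are Zic4 chr9:91367957-91368027, Stau2 chr1:16519604-16519733, Gapvd1 chr2:34754657-34754723, A330023F24Rik chr1:195016977-195017068, Nfia chr4:97772608-97772702, Nfix chr8:84774402-84774472 and Zfp607b chr7:27689155-27689259.
Zic4: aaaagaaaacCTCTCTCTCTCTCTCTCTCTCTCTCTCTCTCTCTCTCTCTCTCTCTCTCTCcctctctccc
Stau2: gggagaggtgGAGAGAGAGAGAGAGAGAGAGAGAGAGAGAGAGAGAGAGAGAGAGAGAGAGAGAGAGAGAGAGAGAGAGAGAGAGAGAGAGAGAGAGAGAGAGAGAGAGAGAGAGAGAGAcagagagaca
Gapvd1: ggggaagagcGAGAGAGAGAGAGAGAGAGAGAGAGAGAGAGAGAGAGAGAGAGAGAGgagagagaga
A330023F24Rik: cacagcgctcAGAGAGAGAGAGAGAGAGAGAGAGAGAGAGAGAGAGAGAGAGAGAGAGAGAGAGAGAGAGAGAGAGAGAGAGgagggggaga
Nfia: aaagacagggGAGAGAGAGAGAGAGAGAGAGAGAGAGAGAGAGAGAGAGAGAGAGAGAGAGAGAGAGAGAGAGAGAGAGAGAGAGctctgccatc
Nfix: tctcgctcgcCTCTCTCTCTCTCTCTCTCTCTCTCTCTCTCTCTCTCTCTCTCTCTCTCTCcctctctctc
Zfp607b: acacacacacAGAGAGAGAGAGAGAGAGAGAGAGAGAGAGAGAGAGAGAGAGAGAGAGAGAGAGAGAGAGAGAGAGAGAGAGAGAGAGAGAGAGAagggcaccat

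Runs were uninterrupted by definition and varied in length. Their length in the genome was 18 to 110 bp over the 20 members, with a median of 63 bp, and 19 of the 20 had a run of at least 30 bp in the window. The longest run, of 110 bp, was at Stau2, which encodes an RNA-binding protein of neuronal mRNA transport. The runs read GA on the strand of the gene at 13 members and CT at the others.

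Peaks were recovered in replicate 1 at 173 members and in replicate 2 at 104 members. Both replicates had a peak at 68 members (32.5%, 26.5% to 39.2%), against 28.9% of all nuclear sites, which include the members. The share was 21.7% (13.1% to 33.6%) at sites of several genes and 18.8% (8.89% to 35.3%) at sites of no promoter, and these intervals overlap that of the members. The strength of a peak is given as its fold, which compares the depth-scaled PHF10 fragments over the summit with the background in IgG after adding 1 to each. The median fold was 5.88 in replicate 1 (3.55 to 17.1) and 6.18 in replicate 2 (3.08 to 13.5). These folds rest on few fragments, with a median of 22 fragments at a summit in replicate 1 (15 to 66) and 20 in replicate 2 (13 to 56), over a genome-wide IgG background of 1.85 fragments.

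At the 68 members with a peak in both replicates, the fragments at the summits were compared with an exact two-sided binomial test, given the depth of each library. No member differed at an adjusted p below 0.05 (Benjamini-Hochberg over all 87 shared nuclear sites, of which 0% differed). Without adjustment, 2 members had p below 0.05. By the exact test, Tob1 had 29 fragments in replicate 1 and 43 in replicate 2 (p = 0.0173, adjusted p = 1), and Ulk2 had 41 and 19 (exact p = 0.0377, adjusted p = 1). The scaled ratio of replicate 1 to replicate 2 had a median of 1.03 (quartiles 0.906 and 1.15) and was above 1 at 39 of the 68 members. The test compares the libraries for counting error only, and a difference too small for these depths would not be detectable. Members with a peak in 1 replicate alone were not tested, so the most unequal members can have been left out beforehand. The result therefore holds only for members called in both replicates.

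**Figure D1:**
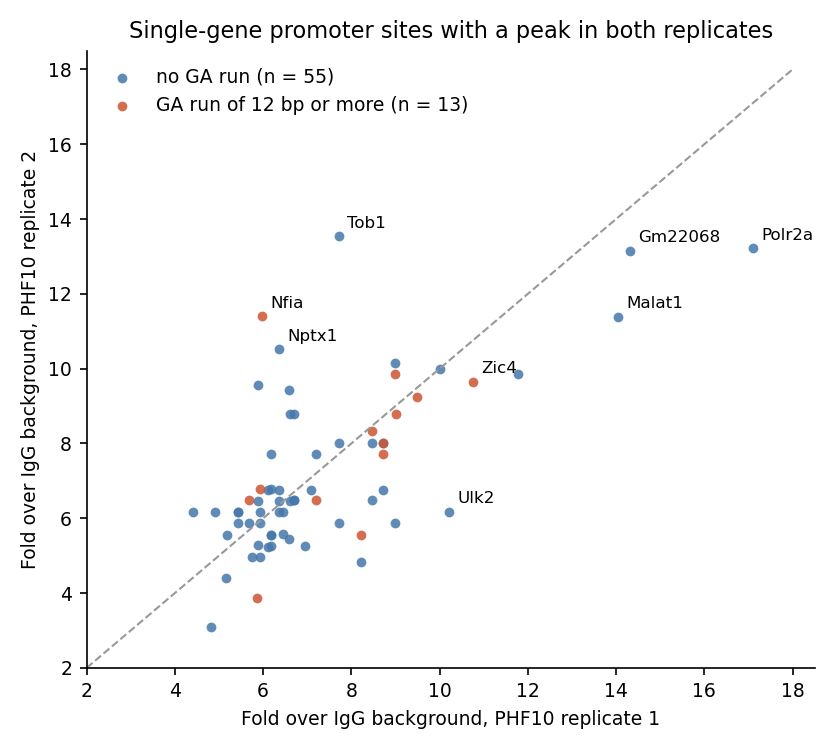
Fold over the IgG background in replicate 1 (horizontal) and replicate 2 (vertical) for the 68 members with a peak in both replicates. Each point is 1 site, orange points have a GA run of at least 12 bp near the summit, and the dashed line marks equal folds. Polr2a, Gm22068 and Malat1 exceed a fold of 11 in both replicates, while Tob1 and Nfia lie far above the line.

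Over these 68 members the folds of the replicates had a Pearson coefficient of 0.664 and a Spearman coefficient of 0.578, given as a description, since the sites share the libraries and the IgG control. The highest mean fold was at Polr2a, with 17.1 in replicate 1 and 13.2 in replicate 2. In replicate 1 no other member had a higher fold, whereas in replicate 2 Tob1 reached 13.5. Calm2, which encodes the calcium sensor calmodulin, had folds of 8.98 and 10.2, and Ubb, which encodes ubiquitin, had folds of 7.71 and 8.02. The folds of Ubb were below those of Calm2 in both replicates.

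Several members with high folds carried a GA run. Zic4, which encodes a zinc finger transcription factor of the developing cerebellum, had folds of 10.8 and 9.65. Stau2 had 8.98 and 9.86, and Gapvd1, which encodes an endocytic regulator of Rab5, had 9.49 and 9.24. At Nfia, which encodes a nuclear factor I protein of neural development, the folds were 5.99 and 11.4 from similar numbers of fragments, 40 and 38, because the local IgG background was 4.00 fragments in the calculation for replicate 1 and 2.00 in that for replicate 2. The fragments of Nfia thus differed less between the replicates than its fold did.

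Of the 209 members, 197 belonged to protein-coding genes, which is 0.898% of the 21938 protein-coding genes annotated. The other members were 4 snRNA genes, 3 lincRNA genes, 3 processed transcripts, 1 snoRNA gene and 1 transcript of the class TEC. A peak in both replicates was found at 6 of these 12. They were the snRNA genes Gm22068 (folds 14.3 and 13.2), Rnu1a1 (10.0 and 9.99) and Gm22513 (6.71 and 8.77), the lincRNA genes Malat1 (14.1 and 11.4) and AI480526 (6.36 and 6.18), and the processed transcript A330023F24Rik (9.01 and 8.78). snRNA genes are multicopy and only reads with 1 alignment were kept, so the folds at these genes are uncertain.

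The summits were spread around the TSS. With the nearest TSS of the gene as the reference, the median summit position was 1 bp downstream (quartiles -51 and 49 bp), with 107 summits downstream, 98 upstream and 4 at the TSS itself. Within 50 bp of the TSS lay 106 summits (50.7%), and within 100 bp lay 156 (74.6%). The median was 2 bp in replicate 1 and 4 bp in replicate 2. The share of summits downstream was 51.2% (44.5% to 57.9%) by this reference.

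This picture depended on which TSS was taken, since the genes had a median of 5 annotated TSSs (1 to 26). Relative to the most upstream TSS, 153 of the 209 summits lay downstream (73.2%, 66.8% to 78.8%) and the median position was 78 bp. With TSSs of basic transcripts the median was 23 bp and 57.4% of summits (50.6% to 63.9%) were downstream, and with principal transcripts these values were 37 bp and 60.9% (54.0% to 67.5%) over 197 members. The intervals cover counting error over sites, and no share was tested against 50%. The most upstream TSS cannot give a lower share than the nearest TSS, so that direction was fixed by the choice of TSS. The 25 members whose gene has 1 annotated TSS leave no such choice. Their median was 43 bp downstream (quartiles -6 and 86 bp), and 17 of 25 summits were downstream (68.0%, 48.4% to 82.8%). At the 107 members whose gene has 5 or more TSSs the median was -1 bp, and 45.8% (36.7% to 55.2%) of the summits were downstream. The intervals of the last pair overlap, and the difference was not tested.

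**Figure D2:**
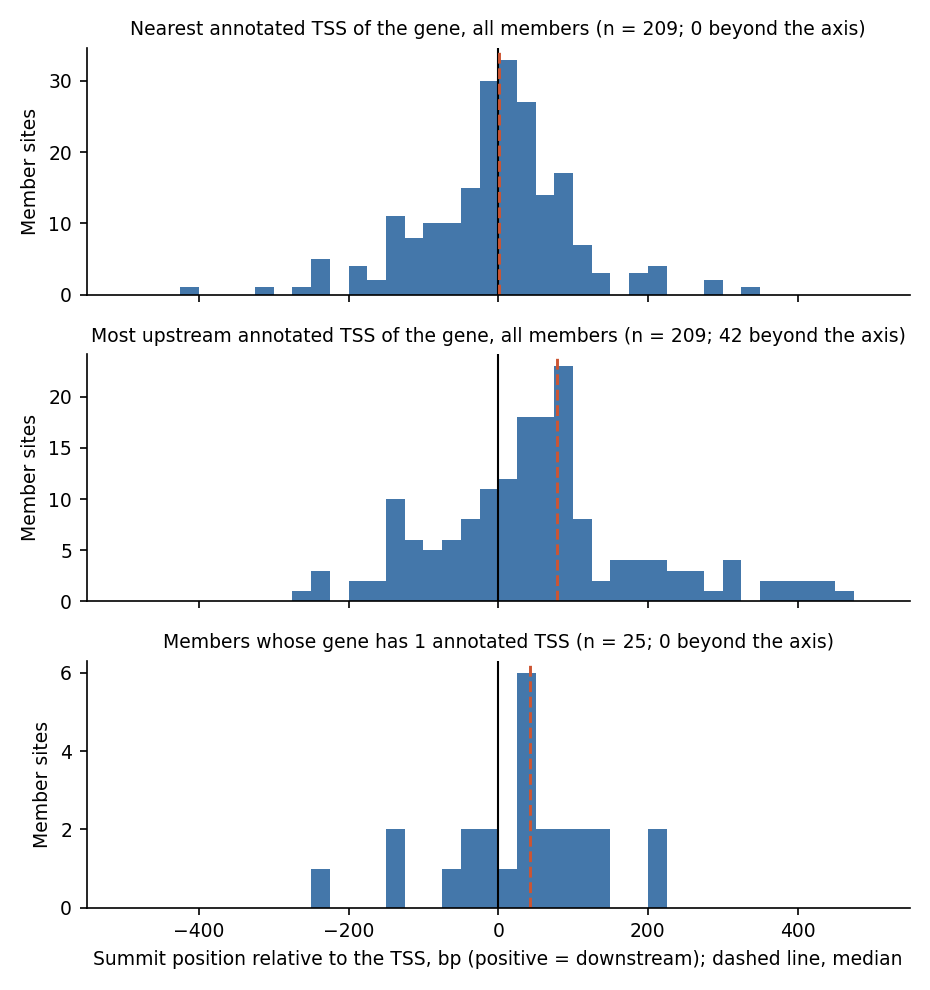
Histograms of the summit position relative to the TSS in bp, in bins of 25 bp, with positive values downstream, for the nearest TSS (top), the most upstream TSS (middle) and members whose gene has 1 TSS (bottom). The dashed lines mark the medians of 1, 78 and 43 bp, and 42 members lie beyond the axis in the middle panel.

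The summits of the replicates were compared at members with both peaks, which overlap by construction, so that near summits were largely fixed. At the 68 members with both peaks, the summits were a median of 38.5 bp apart (1 to 295 bp), and 64 of 68 pairs lay within 100 bp. Each summit was placed relative to its own nearest TSS of the gene, which can differ between the replicates. These positions had a Pearson coefficient of 0.893 and a Spearman coefficient of 0.772. This is a description over sites that share the annotation and the IgG control. Among the 45 pairs with both summits within 100 bp of their nearest TSS the coefficients were 0.612 and 0.520. Both summits were on the same side of their nearest TSS at 51 of 68 members.

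A few members kept a summit far from the TSS in both replicates. At Zic4 the summits lay at -410 and -419 bp, at A330023F24Rik at -317 and -299 bp and at H2-DMa at -244 and -262 bp. Downstream, they lay at 323 and 281 bp at Zic1, which encodes a related zinc finger factor, and at 174 and 180 bp at Zfp963. Zic4 and Zic1 are neighbours on opposite strands of chromosome 9, and their member sites (chr9:91367832-91368202 and chr9:91365377-91365757) both hold a GA run. The summit of Zic4 lay in an intron and that of Zic1 in the UTR.

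Most sites were narrow. The median member was 265 bp wide, with a range of 200 to 796 bp, and 27 members had the smallest width of 200 bp. Sites of several genes had a median width of 237.5 bp and sites of no promoter 225.5 bp, but the rule bears on width and no test was made. Width and fold had a Spearman coefficient of 0.432 over 209 sites that share the libraries, as a description. A site joins the peaks of both replicates and takes the fold of the stronger, so the measures are linked by construction. The medians were 326.5 bp and 7.02 at members with both peaks, against 265 bp and 5.93 at all members. The widest members were Kmt5b, the gene of a histone methyltransferase, with 796 bp, Polr2a with 659 bp and Nfia with 588 bp. At Kmt5b the summits of the replicates were at -183 and -1 bp, each from its own nearest TSS. The width there thus joins peaks with different summits.

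By annotation, 106 summits lay in a UTR, 55 outside the gene, 24 in an intron, 13 in coding sequence and 11 in an exon of another kind. The closest member to the 200 bp limit on the inside was Zic4, whose site ended 165 bp from the TSS, followed by D2hgdh (159 bp) and Canx (152 bp). Just outside the limit were sites near Tenm2 (folds 7.20 and 7.10), Cdk12 (208 bp) and Csrnp2 (215 bp). The TSS of another gene was a median of 8785 bp away, and at 37 members it was within 1000 bp. Of these 37 neighbours, 33 were on the opposite strand.

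Members were rich in CpG. Within 100 bp of the summit, the CpG observed to expected ratio had a median of 0.916, the GC content 67.2%, and the window held a median of 20 CpG dinucleotides. A GC content of at least 50% together with a ratio of at least 0.6, the composition used to define CpG islands, was met at 185 members (88.5%, 83.5% to 92.2%). Among all protein-coding genes, 47.8% met it at the most upstream TSS, and 80.7% of the 197 protein-coding members did so at that TSS. Sites of several genes met it in 91.7% of cases and sites of no promoter in 46.9%. The fold of a member had a Spearman coefficient of -0.188 with the number of CpGs and -0.270 with GC content. This is a description over 209 sites that share the libraries. They include the 20 members with a GA run, whose median fold was 7.68 with a median of 4 CpGs. Among the other members these medians were 5.87 and 21 CpGs. A GA run holds no CpG, so fewer CpGs and a lower ratio at these 20 members partly follow from the class.

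The 24 members below this composition were of distinct kinds. A GA run was found at 16 of them, and the other 8 were Gm22068, Malat1, AI480526, Snord118, Slc38a2, Ints6, Clstn3 and Lyrm7, which are named after their values were seen. Slc38a2, an amino acid transporter gene, failed only on GC content (44.8%), with a CpG ratio of 1.67. The lowest ratios among members with both peaks were 0 at Stau2, 0.0787 at Zfp607b and 0.110 at AI480526. The snoRNA gene Snord118 had a ratio of 0.0977 and a peak in replicate 1 alone.

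**Figure D3:**
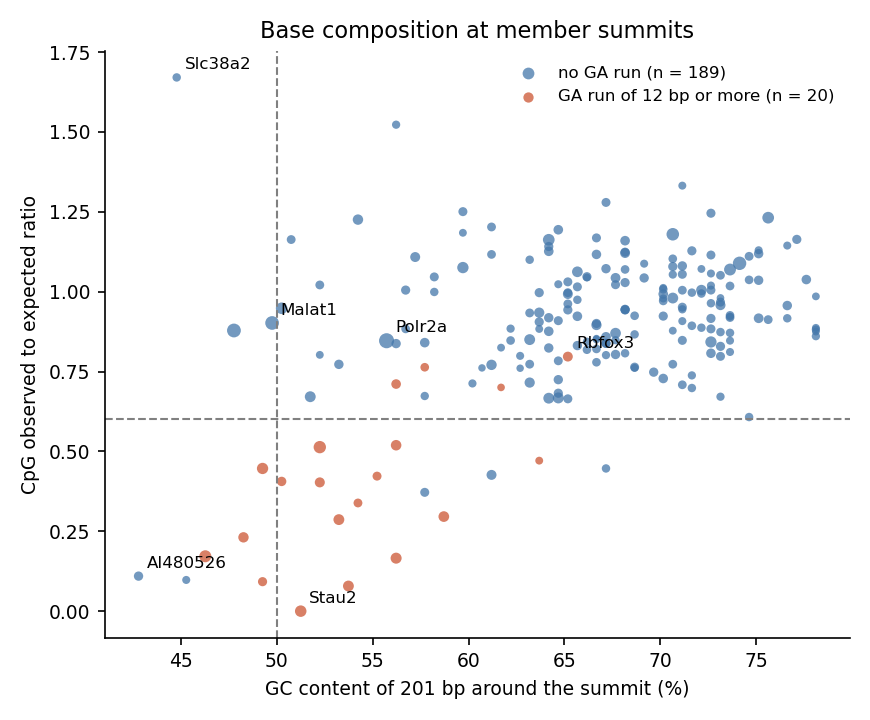
CpG observed to expected ratio against GC content (%) within 100 bp of the summit of each of the 209 members. Larger points have a higher fold, orange points have a GA run of at least 12 bp, and dashed lines mark a ratio of 0.6 and a GC content of 50%. The GA-run members lie mostly below the ratio line, and most other members lie above it.

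GA runs were uncommon at promoters in general. Of windows reaching 100 bp to each side of the most upstream TSS of each protein-coding gene, 0.743% (163 of 21938) held a run of at least 12 bp, and over every TSS of these genes the share was 0.696%. The same windows held a run at 2.54% of the protein-coding members (5 of 197). Centred on the TSS nearest to the summit, the share was 6.70% of all members, and centred on the summit it was 9.57%. Since the class was defined by runs near the summit, the higher share at the summit was fixed by the choice. The summits of GA-run members were a median of 570 bp downstream of the most upstream TSS, compared with 69 bp for the members without a run.

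**Figure D4:**
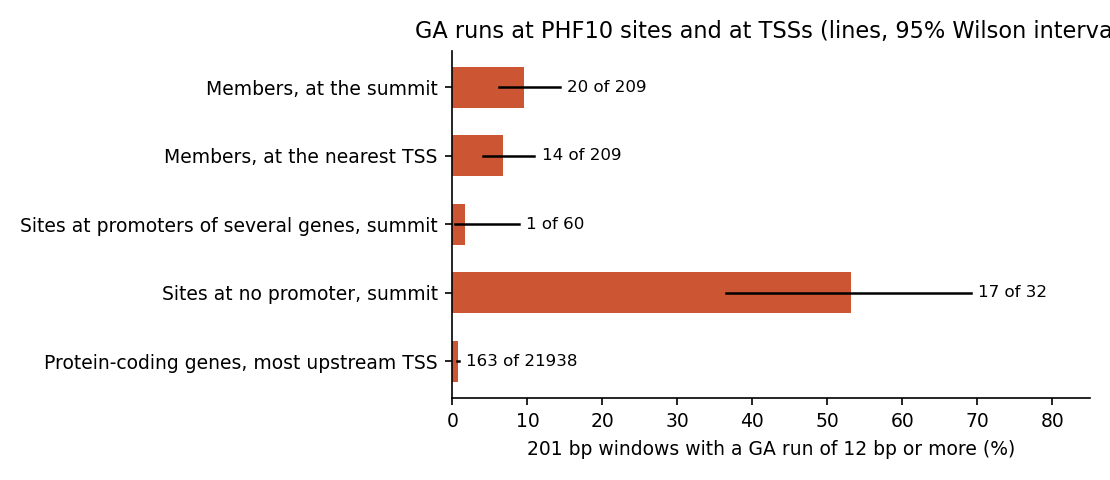
Percentage of windows, reaching 100 bp to each side of the summit or TSS, that hold a GA run of at least 12 bp, with bars for the share and lines for the 95% Wilson interval, at the summits of each class of PHF10 site and at TSSs. Members stand at 9.57%, sites of no promoter at 53.1% and all protein-coding genes at 0.743%.

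Among the other sites, a GA run was found at 1 of the 60 sites of several genes (1.67%, 0.295% to 8.86%) and at 17 of the 32 sites of no promoter (53.1%, 36.4% to 69.1%). Members stood between these classes, with intervals that overlap the first and not the second. The class was picked on these sites, so the comparison is a description.

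The 20 GA-run members differed in several measures from the other 189. Their median fold, taken from the stronger peak of a site, was 7.68 against 5.87. As the mean over the replicates with a peak it was 7.15 against 5.68. A peak in both replicates was found at 65.0% (43.3% to 81.9%) against 29.1% (23.1% to 35.9%). In replicate 2 alone, the median fold was 7.86 over 14 GA-run members and 6.18 over the rest. Among the 68 members with a peak in both replicates, 13 had a run (19.1%). Of the 20 of these 68 with the highest mean fold, 8 had a run. The windows of the GA-run members were soft-masked as repeats over a median of 58.7% of bases, against 0 for the rest. Since a GA run is itself a simple repeat, this difference largely follows from the class.

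The IgG background rests on 1 library and stood at the genome-wide level at most sites. It exceeded the genome-wide level at 5 of 19 GA-run members and at 53 of all 173 members in replicate 1, and at 4 of 14 and 31 of 104 in replicate 2, where the counts of all members include those with a run. Its part in the folds was not tested. The summit itself lay inside the run at 5 of 20 members, and the run's centre was a median of 41.5 bp from the summit. Only reads with 1 alignment were kept, and how many of the 100-bp reads could be placed in the runs was not tested.

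Further GA-run members are described singly, as names chosen after their values were seen unless they are in a list. Rbfox3 encodes the nuclear protein of mature neurons known as NeuN, and its folds were 7.20 and 6.48 with the summits at 11 and 45 bp. Nfix, like Nfia a nuclear factor I gene, had 8.47 and 8.32. Gap43, a growth cone protein, had 5.43 and Gria4, an AMPA receptor subunit, had 6.12, both in replicate 1 alone. Nrep, a small protein of neural cells, had 5.85 and 3.87.

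Counts of members in gene lists were read against the 0.898% of protein-coding genes with a member site. The neuronal transcription factor list had 4 members of 17 (Zic4, Scrt2, Zic1 and Uncx), and the list of immediate early genes, whose transcription rises within minutes of stimulation, had 4 of 25 (Ier5, Btg2, Dusp1 and Jund). Of the 2 lists, the first had a GA run at 3 of its 4 members and the second at 0 of 4. The axon growth list had 2 members of 21, Gap43 and Nrep, and both had a run. The lists were written with earlier results of these data known, and these counts are descriptions.

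Heat shock proteins and DnaJ chaperones had 4 members of 73 (5.48%, against the 0.898% of all protein-coding genes), with folds of 7.20 and 7.71 at Hspa8, 6.44 in replicate 1 at Hspa5, 6.18 in replicate 2 at Hsp90ab1 and 4.67 in replicate 1 at Dnajc27. RNA polymerase II and its factors had 2 of 84 (2.38%), Polr2a and Hexim1, an inhibitor of the elongation kinase P-TEFb, which had folds of 4.83 and 3.08. The mitochondrial list had 1 of 138 (0.725%), Slc25a4 (8.22 and 4.84), an ADP/ATP carrier. Ion pumps and channels had 3 of 144 (2.08%), among them Atp1b2, a subunit of the sodium pump (5.93 in replicate 1), and none of these 3 had a peak in both replicates.

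The remaining lists are also set against the 0.898% of all protein-coding genes. Presynaptic proteins had 3 of 49 (6.12%, among them Nptx1 and Nsg1) and core histones 2 of 78 (2.56%, Hist4h4 and H3f3b). Splicing factors had 2 of 68 (2.94%, Ddx5 and Hnrnpab) and actin and tubulin 2 of 31 (6.45%, Actb and Tuba4a). Of 28 genes of PBAF and BAF subunits, 1 was a member (3.57%), and it was Actb, whose site had a fold of 5.68 in replicate 1 alone. The other genes of this list, PHF10 included, had no single-gene promoter site. At the share of all genes, a list of this length would mostly hold no such gene.

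Cell type markers were also looked up. Lists this short cannot check the tissue, since 0.898% of all protein-coding genes had a member site. The neuron list had 1 member of 8 (12.5%, Rbfox3) and the list of cerebellar granule cells 1 of 6 (16.7%, Zic1). Both of these members had a GA run. No member was found among 6 astrocyte, 7 oligodendrocyte, 5 microglia, 4 endothelial and 4 choroid plexus and ependyma markers. At the share of all genes, lists of this length would mostly hold no member, so this absence says nothing about the cell types. A missing site does not show that a gene is inactive or unbound at this depth.

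Promoter elements were counted from 250 bp upstream to 50 bp downstream of the TSS, on both strands, with the nearest TSS for members. GGGCGG was found at 72.7% of members, against 43.0% of all protein-coding genes and 72.1% of those with the CpG composition. TATAAA was found at 16.3% (11.9% to 21.9%), against 12.6% of all genes and 5.70% of CpG-rich genes. CCAAT stood at 40.2%, against 39.0% and 37.8%. CACGTG, the E-box palindrome, stood at 8.13%, against 7.75% and 11.5%. GCGCATGC, a part of the motif bound by NRF1, stood at 8.61%, against 3.71% and 6.11%. Since the genes were read at their most upstream TSS, members were also read there, which gave 12.7% for TATAAA, 66.0% for GGGCGG and 7.61% for GCGCATGC.

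TGACGTCA, the palindromic cAMP response element, was found at 17 members (8.13%, 5.14% to 12.6%), against 2.43% of all genes and 3.92% of CpG-rich genes. At the most upstream TSS, where the genes were read, it was found at 11 of 197 protein-coding members (5.58%). No interval was computed for this share, and its distance from the 3.92% of CpG-rich genes was not tested. It was present in the promoters of 3 of the 4 immediate early genes among the members. These were Btg2, an antiproliferative gene (folds 6.12 and 6.74), Dusp1, a MAP kinase phosphatase (6.18 in replicate 2), and Jund, a subunit of AP-1 (6.58 and 5.44). Of the 17 members, 6 had a peak in both replicates and 0 had a GA run, and these names were chosen after the values were seen.

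Members lay on 19 autosomes in unequal numbers. Chromosome 11 held 37 of the 209, and 33 of its 1639 protein-coding genes had a member site (2.01%, 1.44% to 2.81%), against 0.898% of all. It held 16.8% (12.2% to 22.6%) of the protein-coding members and 7.47% of the genes. Its share of the members was 17.3% in replicate 1 and 19.2% in replicate 2. Polr2a, Gm22068, Tob1, Rnu1a1, Nptx1, Ulk2, Ubb and Rbfox3 are among them. Chromosome 18, with 9 member genes of 513 (1.75%, 0.926% to 3.30%), also had an interval above the share of all genes. Chromosome 3 held 3 members (0.299% of its genes, 0.102% to 0.875%). No member was found on the X chromosome, with 948 protein-coding genes, and 0 of all 301 nuclear sites lay there. Copy number of the X chromosome was not taken into account. The intervals were not adjusted for the number of chromosomes, and no test was made.

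**Figure D5:**
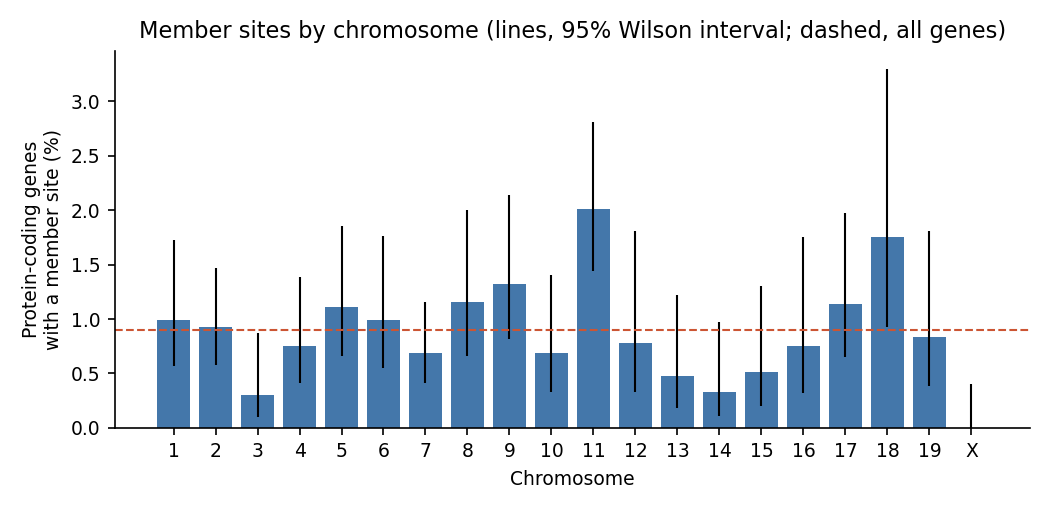
Percentage of the protein-coding genes of each chromosome that have a member site, with bars for the share and lines for the 95% Wilson interval. The dashed line is the 0.898% of all protein-coding genes, and chromosomes 11, at 2.01%, and 18, at 1.75%, have intervals above it, while those of chromosomes 3 and X lie below it.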

How the data were processed

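PHF10 ChIP-seq libraries from 2 biological replicates were analysed, with 1 IgG library as control. Per the study's methods, the authors trimmed single-end reads with Cutadapt, aligned them to mm10 with Bowtie 1, kept reads that aligned at 1 place, removed duplicates with Picard and called peaks per replicate with MACS2 against IgG, extending reads to 200 bp. They removed peaks of blacklisted regions. The deposited lists give a score, a fold enrichment, and −log10 p-values and q-values for each peak, with the position of its summit. All 251 and 141 peaks were used. Whole fragments at each summit were solved from fold and p (largest error 0.00191), with a depth relative to IgG of 1.38 in replicate 1 and 1.14 in replicate 2. Total reads are not in the lists, and intervals cover counting error only.

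TSSs of 141730 nuclear transcripts were taken from GENCODE M21 and sequences from GRCm38. The summit and the fold of a site were those of the peak with the highest −log10 p. Python 3.11.15 with numpy 2.4.6, scipy 1.17.1, pandas 2.3.3 and matplotlib 3.10.9 was used, and the calculations were tested on simulated data. Intervals are 95% Wilson intervals. Sites are not replicates of a condition, so no p-value was given over sites. The members and lists were chosen with earlier results of these data known. Genes were named by rank of mean fold, summit position, width, gene type, distance to the limit, CpG ratio and membership of a list. The other names were chosen after their values were seen, namely the members with a GA run or TGACGTCA, those among the printed promoters, Ubb and those on chromosome 11. Some members and sequences that meet these rules are not reported here.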

Additional observations from a re-analysis of the deposited data

How the results depend on the processing

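Of the 120 alternative values computed, 72 stayed within the spread between the replicates or, for counts, within 1.5 times, and the other 48 moved. Leaving out 1 replicate gave 103 to 173 members (103 without replicate 1), 52.6% to 54.4% of summits downstream, a median position of 2 to 4 bp, a median width of 245 to 249 bp, a median fold of 5.88 to 6.18, a CpG ratio of 0.893 to 0.924, 93.2% to 93.6% at protein-coding genes and 11.0% to 12.6% with a GA run. With 1 replicate, the share with a peak in both could not be computed. Keeping only sites with a peak in both replicates gave 68 members, 55.9% downstream, a median position of 4 bp and a width of 326.5 bp. Their median fold was 7.02, or 6.59 as the mean over the replicates. Of these members, 91.2% were at protein-coding genes and 19.1% had a GA run.

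The choice of TSS moved the position most. The share downstream and the median position were 73.2% and 78 bp from the most upstream TSS, 57.4% and 23 bp with basic transcripts and 60.9% and 37 bp with principal transcripts. The 25 members whose gene has 1 TSS, which are a smaller set, gave 68.0% and 43 bp. By construction, the share from the most upstream TSS could not be below that from the nearest TSS. With the midpoint of the site, the share and the median position were 53.6% and 4 bp. With the mean summit of both replicates, which only the 68 members with both peaks have, they were 61.8% and 11 bp. The summits of the stronger peaks at these members gave 55.9% and 4 bp. The share downstream was 52.6% at a −log10 p of at least 7, 52.6% with a promoter window of 100 bp, 48.2% with 500 bp, below 50%, with a median position of 0 bp, and 52.7% with the summit in the window. The cause of the other shifts was not tested.

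The median width was 261 bp with a window of 500 bp, 253 bp with protein-coding TSSs and 261 bp without the members with a GA run. The share at protein-coding genes was 95.5% with a window of 500 bp, 95.1% with the summit in the window and, by construction, 100% with protein-coding TSSs. The median fold was 8.50 as a ratio without the added 1. The CpG ratio was 0.962 within 50 bp of the summit and 0.887 within 200 bp. The share with a GA run, for which all alternatives were chosen after seeing the data, was 8.13% with a window of 100 bp, 11.6% with 500 bp, 7.39% with the summit in the window and 13.4% for runs of at least 8 bp. In 3 alternatives of the replicate test, 0 members with a peak in both replicates differed at an adjusted p below 0.05 (exact binomial test). In each, 2 had an unadjusted p below 0.05 by the same exact test. No paired analysis was possible because the PHF10 libraries form 1 group. Summits held 13 to 66 fragments, and this depth limits which sites were called and how well a fold is known.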
